A study of Saccharomyces cerevisiae with 3 samples.

Results

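The AAD genes of Saccharomyces cerevisiae encode putative aryl-alcohol dehydrogenases, which resemble an enzyme that reduces aromatic aldehydes in the lignin-degrading fungus Phanerochaete chrysosporium. The family was taken as the 7 open reading frames (ORFs) AAD3 (YCR107W), AAD4 (YDL243C), AAD6 (YFL056C), AAD16 (YFL057C), AAD10 (YJR155W), AAD14 (YNL331C) and AAD15 (YOL165C), chosen by name. All 7 were found among the 6178 ORFs of the array, and all 7 had a value in each of the 3 samples, as did 6123 ORFs in total. None of their cells was among the whole-number cells that were divided by 1000.

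Genomic DNA of 3 strains was compared by array comparative genomic hybridisation, in which DNA of a pair of strains is labelled with the dyes Cy3 and Cy5 and hybridised together. The strains were R2 IVo, an artificial intraspecific hybrid, and its parental strains Sc1 and Sc2. Each is 1 yeast strain, and all were grown and dried industrially by the producer's standard procedure, per the labels. There was 1 sample per pair of strains (R2 IVo over Sc1, R2 IVo over Sc2 and Sc1 over Sc2), each already combined by the authors from duplicate dye-swapped arrays, so there are no replicate samples of a pair.

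As background, aldo-keto reductases use NADPH or NADH to turn aldehydes and ketones into alcohols, and the AAD proteins belong to this superfamily. Their substrates in the living cell are poorly known. AAD4 and AAD6 are induced by oxidants through the transcription factor Yap1. The genes lie near chromosome ends, in regions where S. cerevisiae strains often differ in gene content, and several are damaged in the reference strain: AAD6 and AAD16 are pieces of 1 frame-shifted gene, AAD10 and AAD15 are shortened. In the gene table of the reference strain AAD6 is entered as a pseudogene that takes in YFL057C. AAD6 and AAD16 are therefore not separate loci there, and the family holds 6 loci.

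A value here is a ratio of hybridisation signals and not an expression level. Fewer copies, sequence that departs from the array probe and loss of similar copies elsewhere can all lower it, and similar copies can hold it near 0. The AAD genes resemble each other, and how far they cross-hybridise was not tested, since no probe sequences were used. Values are read as log2 of the strain named first over the other, with the median of all ORFs set to 0 in each sample. The files state neither base nor direction, so both are likely readings. With the natural logarithm the fitted difference of AAD15 between R2 IVo and Sc2, 1.35-fold on the log2 reading, would be 1.53-fold.

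The ratios of the family were small, with no member past 0.5 in size in any sample. In the R2 IVo over Sc1 sample the 7 members lay between −0.14 (AAD14) and 0.31 (AAD15), with a median of −0.031 and 2 members above 0. In the R2 IVo over Sc2 sample they lay between 0.025 (AAD10) and 0.49 (AAD4), with a median of 0.16 and all 7 above 0. In the Sc1 over Sc2 sample they lay between −0.079 (AAD4) and 0.30 (AAD3), with a median of 0.11 and 5 above 0. The central 95% of all ORFs lay between −0.22 and 0.24, between −0.24 and 0.21 and between −0.33 and 0.24 in the same order. Outside those ranges were AAD15 in both hybrid samples, AAD4 in the R2 IVo over Sc2 sample, and AAD3 and AAD6 in the Sc1 over Sc2 sample.

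**Figure D1:**
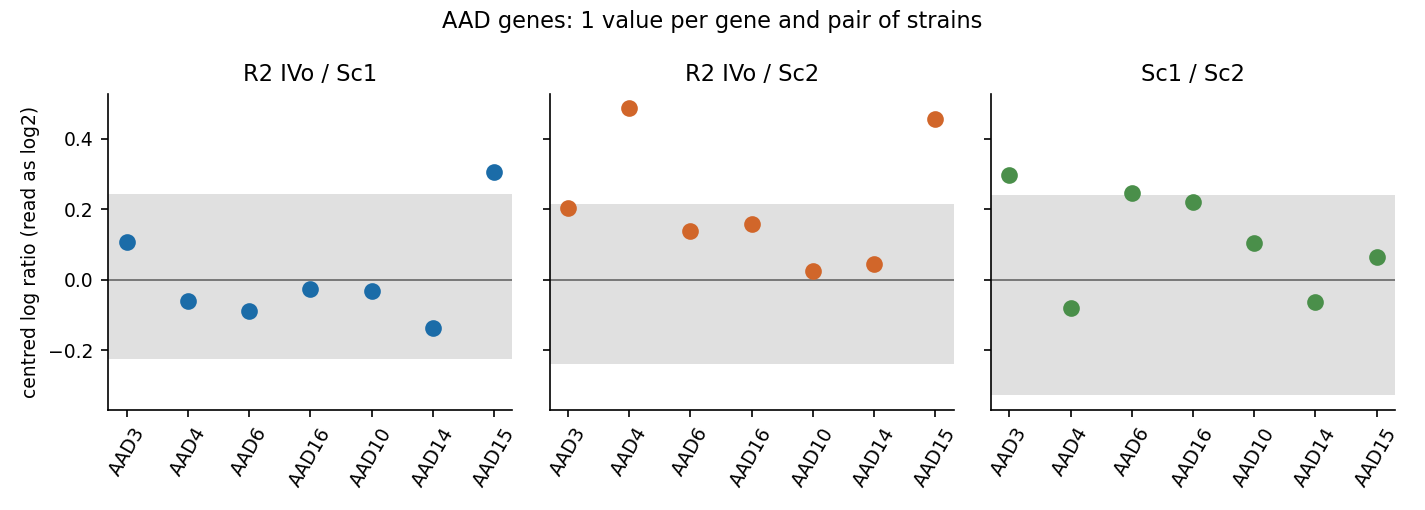
Centred log ratio (read as log2) of each of the 7 AAD genes in the 3 samples, 1 point per gene and sample; the grey band holds the central 95% of 6123 ORFs. All 7 points lie above 0 for R2 IVo over Sc2, with AAD4 at 0.49 and AAD15 at 0.46.

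Strain differences were then estimated for every ORF from the 3 samples together. The samples form a triangle, so that each difference is seen once directly and once as a path through the remaining strain, and 1 residual degree of freedom remains. An ORF was called at a limma adjusted p under 0.05 over the 6123 ORFs. These p-values rest on how well the 3 arrayed pairs fit together, moderated by a spread estimated over all ORFs. No pair has replicate samples, so they do not measure variation between cultures.

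Between R2 IVo and Sc2, 1 of the 7 members was called, AAD15, which was higher in the hybrid. In this comparison 0.915% of all ORFs were called, 0.18% higher and 0.735% lower in the hybrid. If all ratios ran the opposite way, AAD15 would be lower in the hybrid and the share in its direction would be the 0.18% given as higher here. Between R2 IVo and Sc1, limma called 0 of the 7 members (1 had an unadjusted p under 0.05) against 0.67% of all ORFs. Between Sc1 and Sc2, limma called 0 of the 7 (3 had an unadjusted p under 0.05) against 1.98% of all ORFs. The AAD genes lie near chromosome ends. The outermost 11 measured ORFs with a gene table entry were therefore taken at each chromosome end, 352 in all. Of these, 9.94% were called between R2 IVo and Sc2, 5.4% between R2 IVo and Sc1 and 16.8% between Sc1 and Sc2. With 7 members at 6 loci, a count of 0 or 1 does not set the family apart from those shares.

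At an unadjusted p under 0.05, 3 members differed between R2 IVo and Sc2 (AAD3, AAD16 and AAD15), 1 between R2 IVo and Sc1 (AAD15) and 3 between Sc1 and Sc2 (AAD3, AAD6 and AAD16). The same rule took 7.95%, 7.99% and 9.57% of all ORFs, and 20.7%, 21% and 29% of the ORFs near chromosome ends, in that order of comparisons. All 7 estimates of Sc1 minus Sc2 were above 0, as were 3119 of all 6123 ORFs and 169 of the 352 near chromosome ends. AAD4 and AAD14 were below 0 in the direct sample (−0.079 and −0.063), and the 7 members are at 6 loci. The median of the 7 was 0.13, where all ORFs had 0.0020 and the ORFs near chromosome ends −0.0065. The estimates of R2 IVo minus Sc2 had a median of 0.17, 6 of 7 being above 0 (3051 of all ORFs and 145 near chromosome ends). Those of R2 IVo minus Sc1 had a median of −0.038, 3 of 7 being above 0 (3124 of all ORFs and 170 near chromosome ends). The comparisons share strains and samples, so these counts are not independent of each other.

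AAD15, a short member at the left end of chromosome XV, was the called gene. It was at 0.31 in the R2 IVo over Sc1 sample, at 0.46 in the R2 IVo over Sc2 sample and at 0.065 in the Sc1 over Sc2 sample. Both hybrid samples were thus high and the sample of the parents was near 0. Of all ORFs, 1.19% were higher than AAD15 in the R2 IVo over Sc1 sample and 0.294% in the R2 IVo over Sc2 sample. With all ratios turned, these would be the shares below it. The fit put R2 IVo above Sc2 by 0.43 ± 0.063 (SE; 95% interval 0.27 to 0.58; limma adjusted p = 0.0464). It put R2 IVo above Sc1 by 0.33 ± 0.063 (95% interval 0.18 to 0.49; limma adjusted p = 0.148), which was not called. The parents differed by 0.093 ± 0.063 (95% interval −0.060 to 0.25; limma adjusted p = 0.740). This last value is also the test of whether the difference of the hybrid from Sc2 departs from that from Sc1, and it was not called. The call against Sc2 lies close to the threshold and was lost in 3 of 5 alternative settings, with adjusted p-values from 0.0124 to 0.116.

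**Figure D2:**
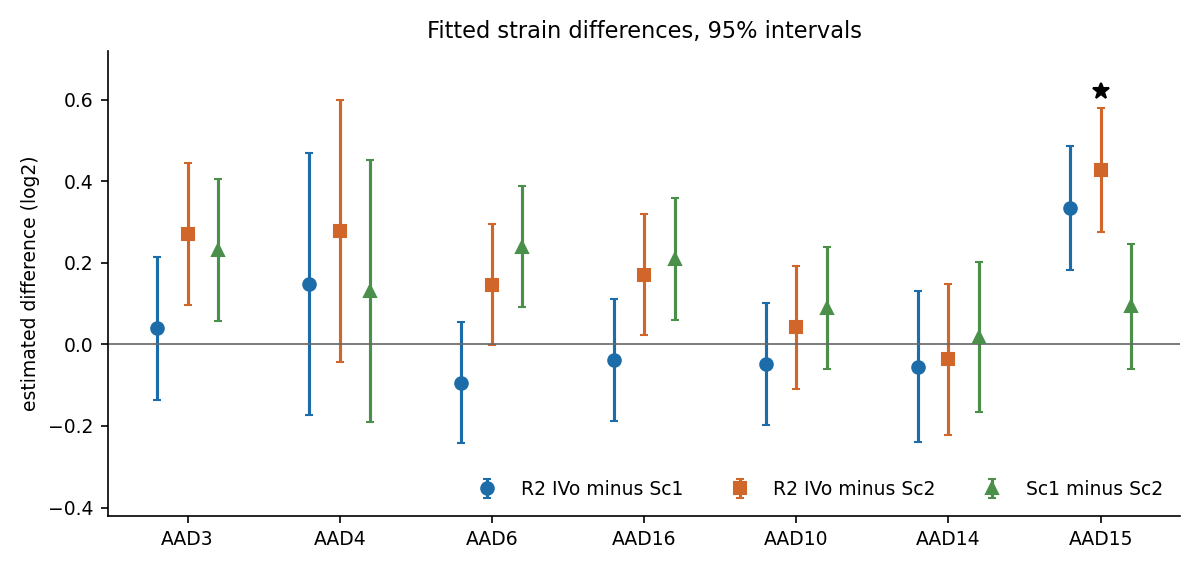
Estimated strain differences (log2) of the 7 AAD genes from the fit to all 3 samples; bars are 95% intervals, unadjusted, and the star marks an adjusted p under 0.05. AAD15 is the 1 gene with a star, for R2 IVo minus Sc2, and AAD4 has the widest intervals.

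The ORFs with a pattern most like that of AAD15 were sought by Euclidean distance over the 3 samples. The nearest was YOL166C, the ORF next to AAD15 by its systematic name, at a distance of 0.15 and with values of 0.26, 0.35 and 0.16 in the order R2 IVo over Sc1, R2 IVo over Sc2 and Sc1 over Sc2. It was followed by YDR262W on chromosome IV at a distance of 0.19 (0.40, 0.30 and 0.073). Next was ENB1 (YOL158C), an iron-siderophore transporter gene also on the left arm of chromosome XV, at a distance of 0.19 (0.24, 0.30 and −0.015). None of the 3 was called in any comparison by limma; YOL166C had an adjusted p of 0.0847 for R2 IVo minus Sc2. On its inner side AAD15 is followed by the sulfatase gene BDS1, whose estimates were 0.0067 (R2 IVo minus Sc1), 0.071 (R2 IVo minus Sc2) and 0.065 (Sc1 minus Sc2), and none of the 5 nearest ORFs on that side was called by limma or had an unadjusted p under 0.05. YOL166C has no entry in the gene table and was not part of that order. Whether YOL166C and AAD15 share array sequence was not tested.

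AAD3 is the outermost measured ORF with a gene table entry at the right end of chromosome III. Its values were 0.11, 0.20 and 0.30 in the order R2 IVo over Sc1, R2 IVo over Sc2 and Sc1 over Sc2, so that both samples with Sc2 as denominator were the higher ones. Its estimates were 0.27 ± 0.072 for R2 IVo minus Sc2 (95% interval 0.096 to 0.45; limma adjusted p = 0.352) and 0.23 ± 0.072 for Sc1 minus Sc2 (95% interval 0.057 to 0.41; limma adjusted p = 0.336). R2 IVo minus Sc1 was 0.039 ± 0.072. None was called. Of the 5 measured ORFs inward of AAD3, the nearest 2 had like values. RDS1, a zinc-cluster regulator gene, was at 0.36 for R2 IVo minus Sc2 and 0.24 for Sc1 minus Sc2, and ADH7, an NADPH-dependent alcohol dehydrogenase gene, was at 0.34 and 0.30. Adjusted p-values of these 2 genes were 0.109 and 0.271 (RDS1) and 0.167 and 0.167 (ADH7). The other 3 did not share them: PAU3 was at −0.0030 and −0.092, YCR102C at −0.017 and −0.19 and YCR101C at −0.0067 and 0.098.

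AAD6 and AAD16, the pieces of 1 gene on the left arm of chromosome VI, gave nearly the same values. AAD6 was at −0.087, 0.14 and 0.25, and AAD16 at −0.027, 0.16 and 0.22, in the order R2 IVo over Sc1, R2 IVo over Sc2 and Sc1 over Sc2. Sc1 was above Sc2 by 0.24 ± 0.061 for AAD6 (limma adjusted p = 0.220) and by 0.21 ± 0.062 for AAD16 (limma adjusted p = 0.299), and neither was called. Against Sc1 the hybrid was at −0.094 ± 0.061 (95% interval −0.24 to 0.054) and −0.038 ± 0.062 (95% interval −0.19 to 0.11).

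Several genes around them differed more. Of the 10 nearest measured ORFs in gene order, 5 were called lower in R2 IVo than in Sc1 and 6 were called higher in Sc1 than in Sc2. In either direction, 0.67% and 1.98% of all ORFs were called in these comparisons, and 5.4% and 16.8% of the ORFs near chromosome ends. On the inner side AGP3, an amino acid permease gene, was at −0.80 for R2 IVo minus Sc1 and 0.86 for Sc1 minus Sc2. It was followed by the aquaglyceroporin gene AQY3 (−0.58 and 0.67), the dihydroxyacetone kinase gene DAK2 (−0.65 and 0.86) and the regulator gene ZNF1 (−0.88 and 0.92). On the outer side DDI3, a cyanamide hydratase gene, was at −0.51 and 0.45, and SNZ3, of vitamin B6 synthesis, was at −0.49 (not called) and 0.52. SNO3, between DDI3 and SNZ3, was at −0.39 and 0.36 and narrowly missed both calls (limma adjusted p = 0.0727 and 0.0502). Between SNZ3 and AAD6 lies THI5, of thiamine precursor synthesis, at −0.073 and 0.0097, and it was not called either. The outermost of the 10 were also not called and closer to AAD6 in value, YFL051C at −0.14 and 0.23 and COS4 at −0.25 and 0.34. AAD6 had the sign of the called genes in both comparisons. The estimate of AGP3 lies below the 95% interval of AAD6 for R2 IVo minus Sc1, but the difference between neighbouring ORFs itself was not tested.

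AAD4, on the left arm of chromosome IV, was the member whose 3 samples fitted together least. It was at −0.061 in the R2 IVo over Sc1 sample, at 0.49 in the R2 IVo over Sc2 sample and at −0.079 in the Sc1 over Sc2 sample. Only the middle one was high, although the first and the last should sum to it. The departure from that sum, the closure, was −0.63, and 0.735% of all ORFs had a closure as large; the median size was 0.10. For R2 IVo minus Sc2 the direct value was 0.49 and the path through Sc1 gave −0.14. The fit, which weighs the direct value more than the path, gave 0.28 ± 0.13 (95% interval −0.043 to 0.60; limma adjusted p = 0.678), which was not called. R2 IVo minus Sc1 was at 0.15 ± 0.13 and Sc1 minus Sc2 at 0.13 ± 0.13. Of the remaining members AAD14 and AAD3 had closures of −0.24 and 0.20, and the other 4 were between −0.085 and 0.050.

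**Figure D3:**
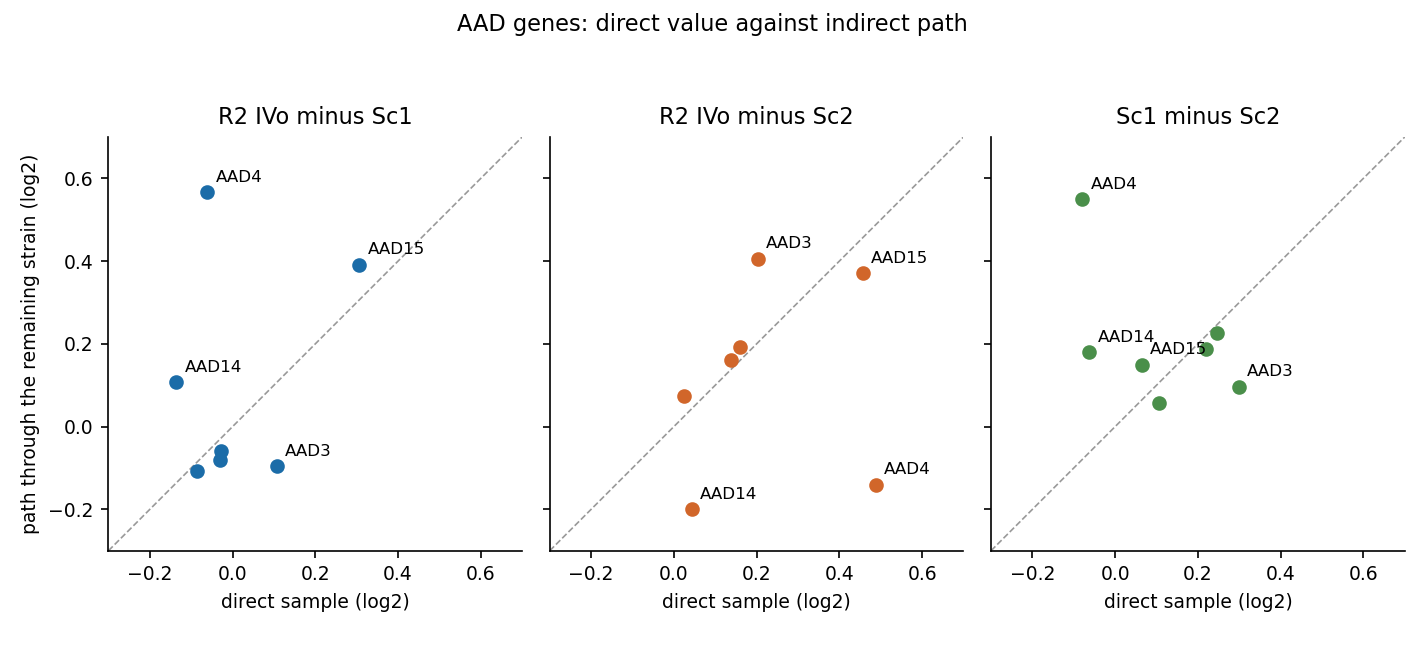
For each of the 7 AAD genes, the direct sample (x axis, log2) against the path through the remaining strain (y axis, log2) in the 3 comparisons; points on the dashed line agree exactly. AAD4 lies farthest from the line in every panel, by a closure of −0.63.

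AAD10, a shortened member on the right arm of chromosome X, was at −0.031, 0.025 and 0.11 in the order R2 IVo over Sc1, R2 IVo over Sc2 and Sc1 over Sc2. AAD14, on the left arm of chromosome XIV, was at −0.14, 0.044 and −0.063. Both were close to 0 throughout. The estimates of AAD10 were −0.048 ± 0.062, 0.042 ± 0.062 and 0.089 ± 0.062 for R2 IVo minus Sc1, R2 IVo minus Sc2 and Sc1 minus Sc2. Those of AAD14 were −0.055 ± 0.076, −0.037 ± 0.076 and 0.018 ± 0.076. No interval of either gene left out 0, and the widest limits were −0.24 (AAD14, R2 IVo minus Sc1) and 0.24 (AAD10, Sc1 minus Sc2).

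AAD4 and AAD10 lie beside similar blocks of sugar-use genes, on chromosomes IV and X, whose ratios differed between the strains. How far the genes of these blocks cross-hybridise was not tested, so the values are not tied to either block alone. Next to AAD4, on its outer side, the alpha-glucoside permease gene MPH2 was at −0.87 for R2 IVo minus Sc1 and 0.86 for Sc1 minus Sc2, and the sorbitol dehydrogenase gene SOR2 was at −0.90 and 0.87. All 4 of these estimates were called. The hexose transporter gene HXT15 between them and AAD4 was called for R2 IVo minus Sc2 (0.78) and Sc1 minus Sc2 (1.13), with a value whose decimal point was restored. Next to AAD10 the corresponding genes were SOR1 (−0.98 and 0.94) and MPH3 (−0.67 and 0.61), all called, and HXT16 (−0.50, not called, and 0.61, called). Farther inward of AAD10 the pectinase gene PGU1 was at −3.09 for R2 IVo minus Sc2 and −2.75 for Sc1 minus Sc2. Both were called. The gene has a restored value and a closure of 1.63, and YJR154W, between it and AAD10, was at 0.11 and 0.013.

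A gene of the THI5 group, which encodes nearly identical enzymes of thiamine precursor synthesis, was directly next to 4 of the 6 members with an entry in the gene table, in the order of measured ORFs. These were THI13 beside AAD4, THI5 beside AAD6, THI11 beside AAD10 and THI12 beside AAD14. limma called none of these 4 THI genes (1, 0 and 0 had an unadjusted p under 0.05 for R2 IVo minus Sc1, R2 IVo minus Sc2 and Sc1 minus Sc2), and their estimates ran from −0.19 (THI12, R2 IVo minus Sc1) to 0.14 (THI12, Sc1 minus Sc2). On the other side of these members lay YDL242W beside AAD4 (−0.050, −0.0027 and 0.048 for R2 IVo minus Sc1, R2 IVo minus Sc2 and Sc1 minus Sc2), AGP3 beside AAD6, YJR154W beside AAD10 and the histone deacetylase gene RPD3 beside AAD14 (0.053, −0.064 and −0.12). Near AAD14 limma called 0 of the 10 nearest ORFs in any comparison, although 5, 1 and 5 had an unadjusted p under 0.05 in that order. Of all ORFs, 0.67%, 0.915% and 1.98% were called by limma, and 7.99%, 7.95% and 9.57% had an unadjusted p under 0.05. Near chromosome ends the shares were 5.4%, 9.94% and 16.8% called, and 21%, 20.7% and 29% at the unadjusted threshold. Beyond THI12, the outer neighbours of AAD14 had the same signs. SNZ2, of vitamin B6 synthesis, was at −0.40 for R2 IVo minus Sc1 and 0.24 for Sc1 minus Sc2. It was followed by SNO2 (−0.32 and 0.31), DDI2 (−0.47 and 0.39) and COS1 (−0.27 and 0.43).

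Over the 50 neighbours of the 6 placed members, 9 were called between R2 IVo and Sc1, all lower in the hybrid. Between Sc1 and Sc2 13 were called, 12 of them higher in Sc1, and between R2 IVo and Sc2 2 were called, HXT15 higher and PGU1 lower in the hybrid. Both of these last calls were lost with 4 prior degrees of freedom (limma adjusted p = 0.0600 and 0.0518), and PGU1 was not called with robust moderation (limma adjusted p = 0.475). As shares of the 50 these are 18%, 26% and 4%, where all ORFs had 0.67%, 1.98% and 0.915% and the ORFs near chromosome ends 5.4%, 16.8% and 9.94%. Neighbours and ORFs near chromosome ends are only those with a gene table entry, while all ORFs include 498 without one. The neighbours adjoin each other and are not separate loci, and those in the sugar-use blocks beside AAD4 and AAD10 resemble each other. The 7 AAD genes held 0, 0 and 1 calls in the same order, and whether that departs from their neighbours was not tested.

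**Figure D4:**
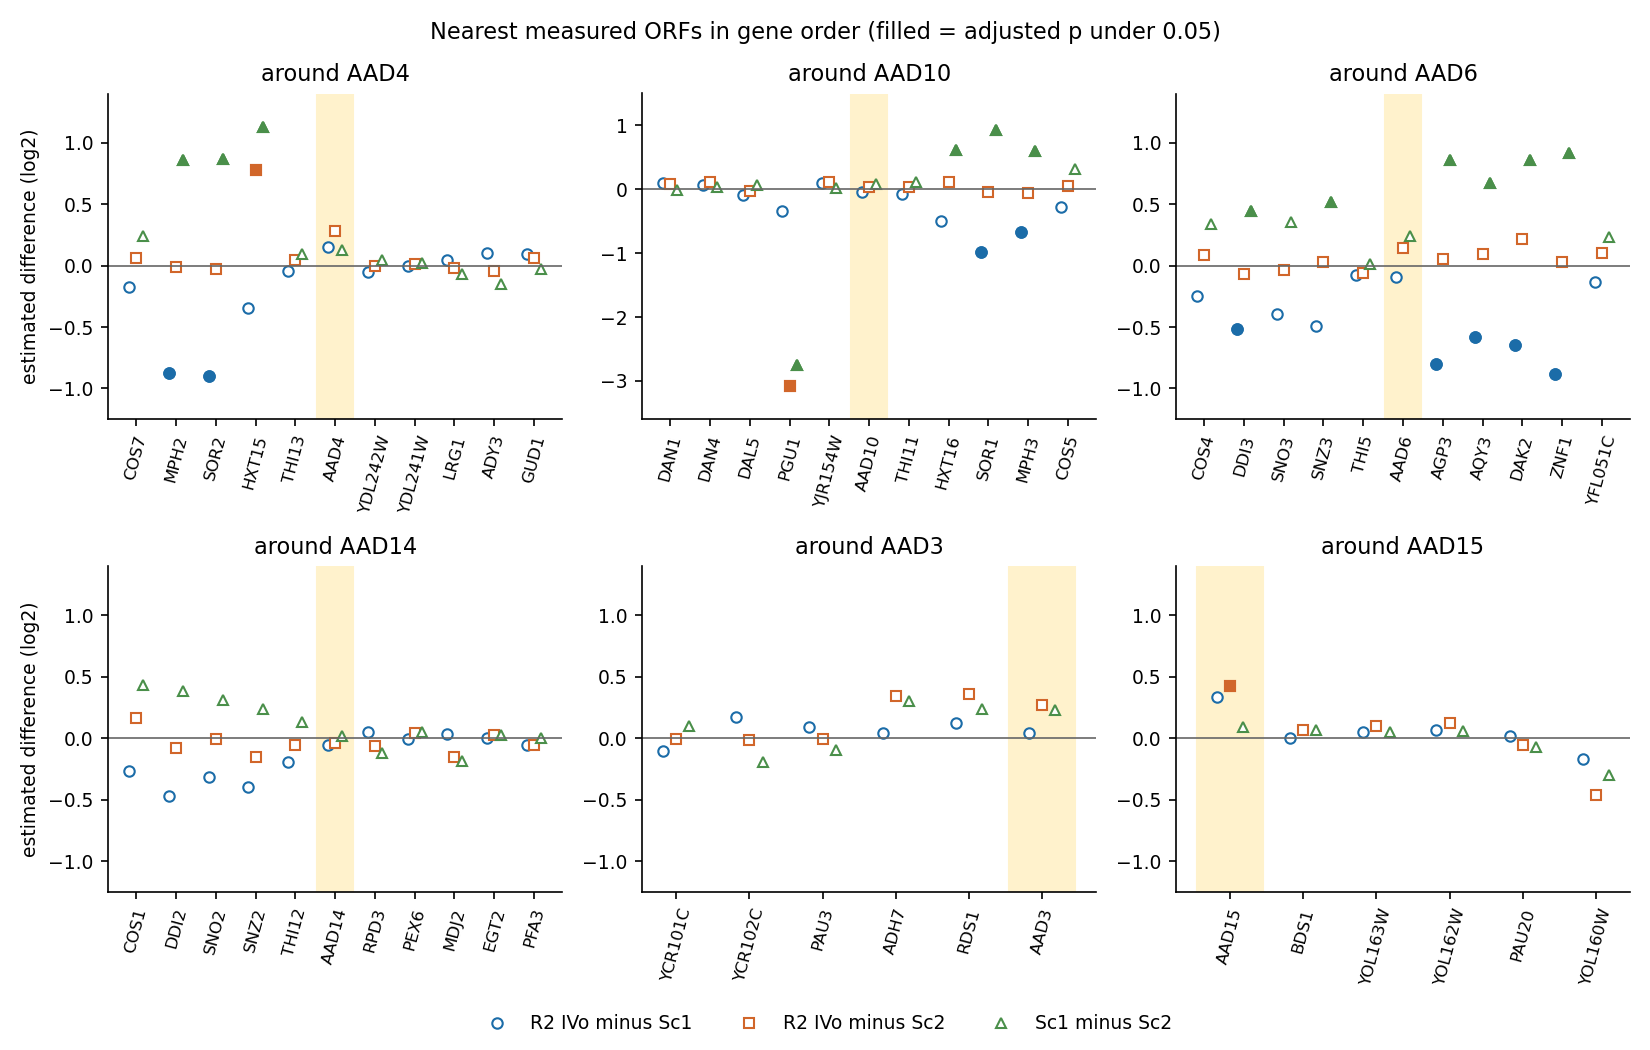
Estimated differences (log2) of up to 5 measured ORFs on each side of 6 AAD genes (shaded), in the order of the gene table; filled symbols have an adjusted p under 0.05, and the AAD10 panel has a longer y axis for PGU1. AAD4, AAD10 and AAD6 were not called and have called genes within 5 ORFs; AAD6 is at 0.24 for Sc1 minus Sc2 and AAD4 at 0.28 for R2 IVo minus Sc2.

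Further gene lists, of other aldo-keto reductases and of aromatic and fusel alcohol formation, were read from the same fit. Of 7 other aldo-keto reductase genes, 6 had all 3 values, and ARA1 did not. limma called 0 of the 6 in any comparison (1, 0 and 1 had an unadjusted p under 0.05 for R2 IVo minus Sc1, R2 IVo minus Sc2 and Sc1 minus Sc2). Of all ORFs, 0.67%, 0.915% and 1.98% were called in that order, and 7.99%, 7.95% and 9.57% had an unadjusted p under 0.05. The medians of the 6 genes were −0.082, −0.032 and 0.048. The lowest and highest were YDL124W, an alpha-keto amide reductase gene, at −0.23 and YJR096W at 0.14 for R2 IVo minus Sc1. For R2 IVo minus Sc2 they were the aldose reductase gene GRE3 at −0.087 and, level with YJR096W, the glycerol dehydrogenase gene GCY1 at 0.14, and for Sc1 minus Sc2 YJR096W at −0.0033 and YDL124W at 0.19.

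In aromatic and fusel alcohol formation, amino acids are transaminated, decarboxylated and reduced to alcohols, which can be esterified. Of 19 genes listed for it, limma called 0 (2, 3 and 1 had an unadjusted p under 0.05 in the same order). Of all ORFs, 0.67%, 0.915% and 1.98% were called, and 7.99%, 7.95% and 9.57% had an unadjusted p under 0.05. The medians of the 19 genes were 0.023, −0.011 and −0.020. The aromatic aminotransferase gene ARO8 was lowest for R2 IVo minus Sc1 (−0.21 ± 0.067) and R2 IVo minus Sc2 (−0.27 ± 0.067), and the branched-chain aminotransferase gene BAT1 was lowest for Sc1 minus Sc2 (−0.15 ± 0.085). Highest were the alcohol acetyltransferase gene ATF2 for R2 IVo minus Sc1 (0.25 ± 0.069) and ADH7, the neighbour of AAD3, for R2 IVo minus Sc2 (0.34 ± 0.071) and Sc1 minus Sc2 (0.30 ± 0.071). Whether the AAD medians differ from those of these lists was not tested.

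**Figure D5:**
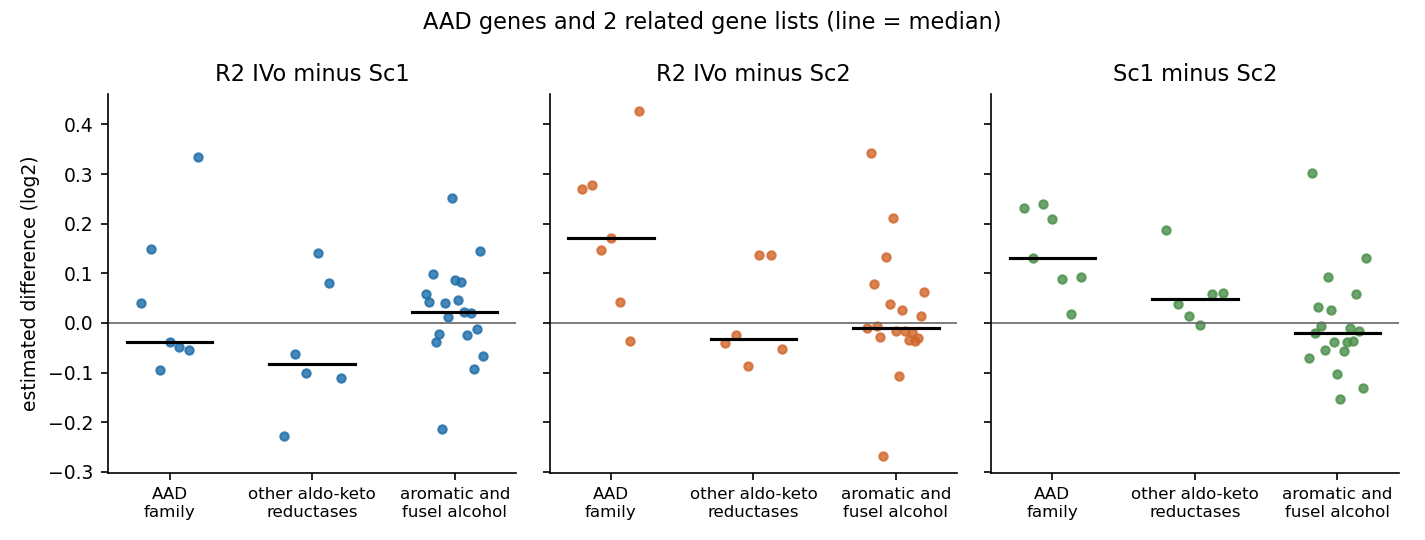
Estimated differences (log2) of 7 AAD genes, 6 other aldo-keto reductase genes and 19 genes of aromatic and fusel alcohol formation in the 3 comparisons, 1 point per gene, with the median as a line. The AAD median is 0.17 for R2 IVo minus Sc2 and 0.13 for Sc1 minus Sc2, where the other lists have medians of −0.032 and −0.011, and 0.048 and −0.020.

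Where the hybrid lies relative to both parents was not placed for any member from centred values. It was to be given for members with a Sc1 over Sc2 value of at least 0.3 in size, and the largest centred value, that of AAD3, was 0.299. The deposited value of AAD3, 0.312, passes this limit, so that centring alone decides it. Without centring the other 2 samples put AAD3 at a position of 1.95, where Sc2 is at 0 and Sc1 at 1. The closure of 0.20 is large beside these values, and the position carries no test. In the fit to all 3 samples R2 IVo minus Sc1 was 0.039 ± 0.072 for AAD3, which was not called.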

How the data were processed

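The deposited values are 1 score per ORF and sample, a log ratio of unstated base that the authors combined from duplicate dye-swapped arrays, per the labels; DNA was cut with Hinf I and labelled with Cy3 or Cy5. The scanner and the correction and normalisation of signals are not stated in the labels, so signal over background is unknown, and the number of arrays limits the precision. From 6180 entries 2 control spots were dropped. Cells of 1000 or more in size (in 56 of the 6123 ORFs kept) were divided by 1000, 55 ORFs with a missing value were left out, and each sample was centred on its median.

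The SD of the closure was 0.19 with the directions of the titles, against 0.29 to 0.42 with any 1 sample turned. Turning all 3 together changes no closure, so the titles alone give the common direction.

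Strain differences were fitted with limma 3.58.1 (lmFit, eBayes) in R 4.3.3 to the triangle of samples, and p-values were adjusted by Benjamini-Hochberg over 6123 ORFs. The estimated prior had 5.30 degrees of freedom and an SD of 0.082. The fit was tested on simulated data. Names and gene order came from RefSeq GCF_000146045.2 (R64), which held 5625 of the ORFs. The 498 ORFs without an entry were not placed, so they count neither as neighbours nor as ORFs near chromosome ends. Beyond that order its coordinates were not used, since the build of the array is unknown. Named genes are all members, list genes that were called or had the highest or lowest estimate, called or nearest ORFs among 5 neighbours on each side, and the 3 ORFs most like a called member. Some neighbours beyond that rule (PAU3, YCR102C, YCR101C, COS4, YFL051C, SNO3, SNZ2, SNO2, DDI2, COS1) were named after their values were seen. The members and lists were chosen with earlier results of these data known. The ORFs near chromosome ends were counted to the 11th from the end because AAD6, the innermost member, is there, a choice made after seeing the data. Sequences of genes, proteins and probes were not used here.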

Additional observations from a re-analysis of the deposited data

How the results depend on the processing

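Each result was recomputed without centring, with centring on the mode, with robust moderation, with 4 prior degrees of freedom and without the ORFs with restored decimal points. The 7 members kept the sign of their estimates in all 3 comparisons and all 5 settings. The number of members called between R2 IVo and Sc2 fell from 1 to 0 without centring (AAD15 at 0.43, limma adjusted p = 0.0815), with 4 prior degrees of freedom (0.43, limma adjusted p = 0.116) and without the restored ORFs (0.43, limma adjusted p = 0.0941). It stayed at 1 with the mode and with robust moderation. In the other comparisons 0 members were called by limma in every setting; the lowest adjusted p was 0.0548, for AAD15 between R2 IVo and Sc1. Among the called neighbours of the AAD genes, 4 prior degrees of freedom also ended the calls of DDI3 and AQY3 between R2 IVo and Sc1 and of SNZ3 and HXT16 between the parents. The parental call of SNZ3 was lost without centring as well, and that of PGU1 with robust moderation (limma adjusted p = 0.405). HXT15 and PGU1 were not tested without the restored ORFs.

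Over all ORFs the 41 calls between R2 IVo and Sc1 (20 higher, 21 lower in the hybrid) became 31 without centring (12 and 19), 62 with the mode (36 and 26), 23 with 4 prior degrees of freedom and 15 without the restored ORFs (1 and 14). The 56 between R2 IVo and Sc2 (11 higher, 45 lower) became 34 with 4 prior degrees of freedom and 15 without the restored ORFs (4 and 11), and the 121 between Sc1 and Sc2 became 61 in the latter setting (20 higher and 41 lower in Sc1). The restored ORFs are the ones with the largest ratios, and leaving them out also lowers the number of ORFs tested. No paired analysis was possible because there is 1 sample per pair of strains. Leaving out a sample leaves no residual degree of freedom and was not run.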
